A study of Homo sapiens with 8 samples.

Results

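The 9 genes described here make up the upper end of the R-spondin and LRP branch of WNT signalling: the ligands RSPO1, RSPO2, RSPO3 and RSPO4, the receptors LGR4, LGR5 and LGR6, and the co-receptors LRP5 and LRP6. They were picked by gene name, and all 9 were among the 35940 gene symbols of the table, each with 1 row. The cells were ESI017, an established human embryonic stem cell line of wild type genotype, kept in mTeSR1 and then changed to N2B27 medium with SB (10 µM) and LDN (100 nM). All libraries shared this medium and differed in time: WNT3A protein (300 ng/mL) was added at 34 h, and RNA was taken at 34, 42, 50 and 72 h, that is 8, 16 and 38 h after the addition for the last 3 times. Each time point had 2 libraries, replicate 1 and replicate 2, which the labels also call batches 1 and 2, so that each batch held every time point. The labels do not say whether the 34 h libraries were taken just before or just after the addition. A series without WNT3A was not analysed here, so time and WNT3A cannot be told apart.

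WNT proteins bind a Frizzled receptor together with LRP5 or LRP6, whose phosphorylated tails recruit AXIN and so stabilise β-catenin. The membrane E3 ubiquitin ligases ZNRF3 and RNF43 remove Frizzled and LRP6 from the cell surface. R-spondins are secreted proteins that bridge an LGR receptor and one of these ligases, which clears the ligase and raises sensitivity to WNT; RNF43 and ZNRF3 are themselves WNT target genes in many tissues. In the early embryo R-spondins are known from the primitive streak and the dorsal neural tube, and LGR5 is widely used as a stem cell marker in adult epithelia.

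Expression was measured by poly(A) RNA sequencing in TPM, which corrects for transcript length, so levels can be compared between genes. The depth is unknown because TPM keeps no read numbers, and a 0 means only that the table lists 0. In each library 13860 to 14004 genes had at least 1 TPM, with 8.70% to 11.2% of the total in mitochondrial genes. The pluripotency markers checked against the label summed to 3215 and 3250 TPM at the start (34 h) and to 1631 and 1554 TPM by 72 h, led by LIN28A and POU5F1. Of these 6 markers 3 were lowered at 72 h against 34 h, POU5F1 among them, where 24.0% of all tested genes were called. LIN28A, with means of 902 TPM (34 h) and 1024 TPM (72 h), did not pass the test (limma adjusted p 0.122). PRDM14, with means of 22.1 TPM (34 h) and 26.6 TPM (72 h), did not pass either (limma adjusted p 0.286). From 50 h to 72 h PRDM14 was raised by 1.235 ± 0.163 in log2(TPM + 1) (limma adjusted p 0.00381). The neural progenitor markers summed to 247 and 235 TPM at the start and to 432 and 398 TPM by 72 h. Markers of roof plate, primitive streak, endoderm and neural crest summed to at most 15.4 TPM in any library, with SOX17 and MSGN1 listed at 0 in all 8.

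The 9 genes covered a wide range of levels, and 1 gene led each family. LGR4 was the highest of the 9 at every time point and held between 97.8% and 99.4% of the summed TPM of the 3 LGR genes. RSPO4 held between 74.2% and 83.8% of the summed TPM of the 4 R-spondin genes. LRP6 lay above LRP5 in each of the 8 libraries. At 34 h the order of mean levels was LGR4, LRP6, LRP5, RSPO4, RSPO2, RSPO1, LGR6, LGR5 and RSPO3, and the libraries overlapped between the neighbours LRP6 and LRP5, RSPO1 and LGR6, and LGR5 and RSPO3. At 72 h the order was LGR4, LRP6, LRP5, RSPO4, RSPO1, RSPO2, LGR6, LGR5 and RSPO3, with overlap between RSPO1 and RSPO2 and between RSPO2 and LGR6. RSPO2 was 5th at 34 h, 7th at 42 h and 50 h, and 6th at 72 h.

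**Figure D1:**
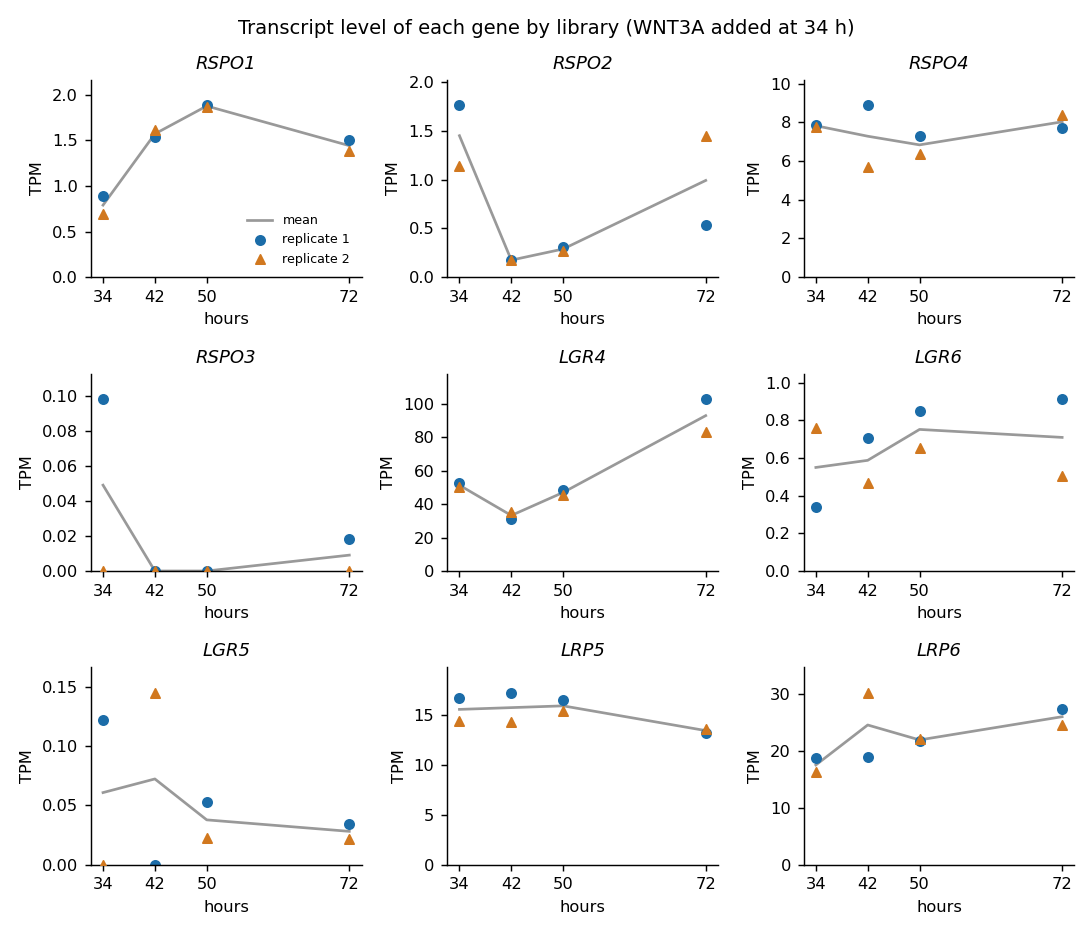
Level of each gene in TPM (y axis, its own linear scale from 0 in each panel) against hours of differentiation (x axis); circles and triangles are replicates 1 and 2, and the line joins the means. LGR4 was lowest at 42 h and highest at 72 h, RSPO2 was lowest at 42 h and 50 h, and RSPO3 and LGR5 stayed below 0.15 TPM.

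A gene entered the test if 2 or more libraries had 1 TPM or more, and 6 of the 9 did: RSPO1, RSPO2, RSPO4, LGR4, LRP5 and LRP6. RSPO1 entered through its 42, 50 and 72 h libraries and RSPO2 through both 34 h libraries and 1 of 72 h. LGR4 was the 1 gene of the 6 whose change passed the threshold, an adjusted p under 0.05 by limma over all 14908 genes tested. At 42 h against 34 h 1 of the 6 was called, LGR4, which was lowered, where 2.58% of all tested genes were called and 0.792% were lowered. At an unadjusted p under 0.05 there were 3 of the 6, against 2069 of all 14908. At 50 h against 34 h 0 of the 6 were called by limma, where 6.26% of all tested genes were called. Unadjusted, 2 of the 6 and 3068 of all genes were under 0.05. At 72 h against 34 h LGR4 was raised, where 24.0% of all tested genes were called and 12.7% were raised, and 2 of the 6 and 5506 of all genes were under 0.05 unadjusted. From 50 h to 72 h LGR4 was again the gene raised, where 7.33% were called and 2.92% were raised. Between 42 h and 50 h 0 of the 6 were called by limma, where 0.0939% of all tested genes were. Unadjusted, 1 of the 6 and 1394 of all genes were under 0.05. Over all times, by the moderated F-test, LGR4 was called and 17.4% of all tested genes were. The 6 genes had median log2 changes from 34 h of -0.05 (42 h), -0.05 (50 h) and 0.24 (72 h), beside 0.01, 0.04 and 0.06 over all genes tested. The 3 comparisons with 34 h share the 34 h libraries.

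**Figure D2:**
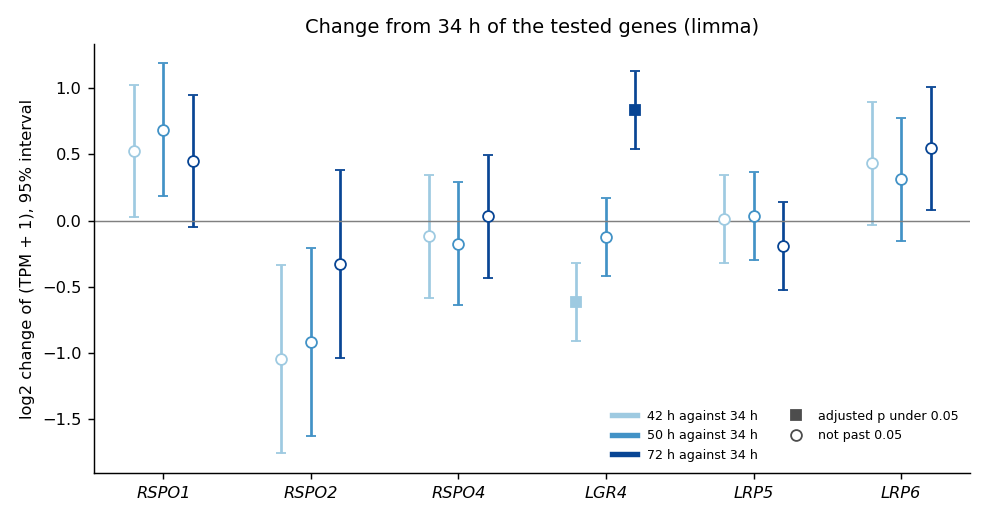
Change from 34 h in log2(TPM + 1) (y axis) of the 6 tested genes, with 95% intervals from limma; shades from light to dark stand for 42, 50 and 72 h, and filled squares passed an adjusted p of 0.05. LGR4 lies below 0 at 42 h and above 0 at 72 h, and the intervals of RSPO4 and LRP5 cross 0 at all 3 times.

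Among the ligands, RSPO4 had the highest level and no change past the threshold. RSPO4 (chromosome 20, 958452 to 1002264, minus strand, GRCh38) had 7.87 and 7.78 TPM at 34 h, then 8.87 and 5.69 at 42 h, 7.28 and 6.39 at 50 h, and finally 7.69 and 8.36 at 72 h. The widest gap between replicates was at 42 h, and the 42 h libraries lay on either side of those of all other times. From 34 h to 72 h RSPO4 differed by 0.03 ± 0.20 (SE) in log2(TPM + 1), with a 95% interval from -0.43 to 0.50 (limma adjusted p 0.930).

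RSPO1 (chromosome 1, 37611350 to 37634923, minus strand), a ligand known for its part in ovary formation, was low throughout. It had 0.887 and 0.694 TPM at 34 h, then 1.53 and 1.61 at 42 h, 1.88 and 1.87 at 50 h, and finally 1.50 and 1.38 at 72 h. All 6 later libraries lay above both 34 h libraries. RSPO1 entered the test through those later libraries alone, so this separation rests in part on the filter and is no separate support. The mean at 50 h was 2.38 times the mean at 34 h, and the log2(TPM + 1) change, which understates such low genes, was 0.69 ± 0.22 (limma adjusted p 0.117; 0.61 and 0.76 within replicates 1 and 2). This change passed only when the variance was fitted without a mean trend (adjusted p 0.0180, range over the alternatives 0.0180 to 0.375). RSPO1 made up 8.35% and 7.23% of the summed R-spondin TPM in the 34 h libraries and 19.9% and 22.0% in those of 50 h. The 6 roof plate and dorsal neural tube markers, a site where R-spondins are known to be expressed, summed to 1.12 and 0.902 TPM at 34 h, then 4.91 and 4.77 at 42 h, 7.21 and 6.25 at 50 h, and finally 5.57 and 7.02 at 72 h. Of these 6, MSX1 and MSX2 were tested, both through libraries later than 34 h, and both were raised at 50 h and 72 h, where 6.26% and 24.0% of all tested genes were called. LMX1A, GDF7, WNT1 and the WNT3A gene stayed under 1 TPM in every library, with WNT1 listed at 0 at 34 h and 50 h. The part of these markers in the RSPO1 values was not tested.

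RSPO2, a ligand needed for limb and lung formation, was the R-spondin with the widest ratio between the highest and lowest means among those tested. It had 1.76 and 1.14 TPM at 34 h, then 0.177 and 0.172 at 42 h, 0.308 and 0.269 at 50 h, and finally 0.537 and 1.44 at 72 h. The 4 libraries of 42 h and 50 h lay below the other 4, of which 3 brought RSPO2 into the test. The mean at 42 h was 0.121 of that at 34 h, and the log2(TPM + 1) change was -1.05 ± 0.31, with -1.23 and -0.87 within the replicates, and did not pass (limma adjusted p 0.159, range over the alternatives 0.0882 to 0.478). With a pseudocount of 0.1 that change was -2.47. The 72 h libraries differed 2.69-fold from each other and overlapped those of 34 h. R-spondins are known to be expressed with primitive streak and mesoderm markers. These summed to 1.76 and 1.81 TPM at 34 h, then 15.4 and 11.2 at 42 h, 12.4 and 9.86 at 50 h, and finally 3.07 and 3.39 at 72 h. TBXT made up most of the sums at 42 h (11.4 and 7.92 TPM) and 50 h (9.62 and 6.83 TPM). Of the 6 markers 3 were tested, TBXT, MIXL1 and EOMES. MIXL1 and EOMES entered the test through 42 h or 50 h libraries alone. TBX6 had its highest mean at 72 h, and MSGN1 was listed at 0 throughout. The part of these markers in the RSPO2 values was not tested. In such bulk samples fewer cells of a type and less RNA per cell cannot be told apart.

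RSPO3 (chromosome 6, 127118604 to 127197765, plus strand), a ligand of the vasculature and of the primitive streak, was listed at 0 in 6 of the 8 libraries. The 2 values above 0 were 0.0979 TPM in replicate 1 of 34 h and 0.0181 TPM in replicate 1 of 72 h. It was not tested.

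The summed level of the 4 R-spondins stayed between 7.48 and 11.2 TPM. The sums were 10.6 and 9.61 TPM at 34 h, then 10.6 and 7.48 at 42 h, 9.48 and 8.53 at 50 h, and finally 9.75 and 11.2 at 72 h, and the libraries of each later time overlapped those of 34 h except at 50 h, where both were lower. Of this sum RSPO2 held 16.6% and 11.9% in the 34 h libraries and 1.68% and 2.30% in the 42 h libraries.

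Among the receptors, LGR4 fell after WNT3A was added and then rose above its starting level. LGR4 (chromosome 11, 27365961 to 27472775, minus strand) encodes a seven-pass receptor with leucine-rich repeats that binds all R-spondins. It had 52.5 and 50.2 TPM at 34 h, then 31.1 and 35.4 at 42 h, 48.3 and 45.7 at 50 h, and finally 103 and 83.3 at 72 h. The 42 h libraries were the lowest and the 72 h libraries the highest, and the libraries of no 2 time points overlapped. LGR4 stood above 80.3% of the tested genes at 34 h, 70.5% at 42 h and 89.5% at 72 h.

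The fall of LGR4 from 34 h to 42 h was close to the threshold. The mean went from 51.4 ± 1.64 to 33.3 ± 3.10 TPM (SD, n = 2) and so to 0.647 of the 34 h level. In log2(TPM + 1) it fell by 0.62 ± 0.13 (limma adjusted p 0.0492), by 0.74 in replicate 1 and by 0.49 in replicate 2. The adjusted p was 0.0588 with the replicate number as a block, and ranged from 0.0381 to 0.226 over the alternatives. It was above 0.05 under 10 of the 15 alternatives, among them leaving out any 1 of the 34, 42 or 50 h libraries. From 42 h to 50 h the log2 change was 0.49 ± 0.13 (limma adjusted p 0.278), and the 50 h level differed from that at 34 h by -0.13 ± 0.13 (0.642).

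The rise of LGR4 to 72 h passed the threshold under each of the 15 alternatives tried. The mean of 93.0 ± 13.8 TPM at 72 h was 1.81 times that at 34 h. In log2(TPM + 1) the rise came to 0.84 ± 0.13, with 0.96 in replicate 1 and 0.72 in replicate 2 (limma adjusted p 0.00263). Compared with 50 h the mean was 1.98 times as high and the rise came to 0.96 ± 0.13, with 1.07 in replicate 1 and 0.85 in replicate 2 (limma adjusted p 0.00393). Over the alternatives the adjusted p ranged from 0.00275 to 0.0229 against 34 h and from 0.00352 to 0.0424 against 50 h. The summed level of the neural progenitor markers, most of it SOX2, was also lowest at 42 h and highest at 72 h, but higher at 50 h than at 34 h, unlike LGR4. The sums were 247 and 235 TPM at 34 h, then 206 and 185 at 42 h, 265 and 253 at 50 h, and finally 432 and 398 at 72 h. The single markers differed in course: SOX1, PAX6 and HES5 had higher means at 42 h than at 34 h, the mean of SOX3 was highest at 34 h, and HES5 was listed at 0 in both 72 h libraries. In all 4 of the 5 were tested, PAX6 through its 72 h libraries alone. At 72 h against 34 h 3 were raised, where 12.7% of all tested genes were raised. The part of these markers in the LGR4 values was not tested. Of the pluripotency markers, PRDM14 also had its lowest mean at 42 h and its highest at 72 h, and the others did not. Its means were 22.1 TPM at 34 h, 7.92 at 42 h, 10.8 at 50 h and 26.6 at 72 h. As with LGR4, the 50 h mean was below that of 34 h. The part of PRDM14 was not tested either.

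The genes whose course was most like that of LGR4, over the 8 libraries and among 11539 tested genes with a mean of at least 5 TPM at their highest time, were SSBP2, FAT1 and ENTR1. Their Pearson correlations with LGR4 in log2(TPM + 1) were 0.993, 0.981 and 0.974, given as a description of libraries that share time points. SSBP2, a single-stranded DNA binding protein, had means of 33.2, 21.7, 31.1 and 52.3 TPM at the 4 times. FAT1, a giant protocadherin, had 64.6, 56.1, 63.2 and 89.0 TPM. In ENTR1 the same order spanned a narrower range, between 66.5 TPM (42 h) and 82.3 TPM (72 h).

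The sequence before the LGR4 start is shown because LGR4 is the gene of the 9 whose change passed the threshold, and that of SP5, a WNT target with 0.255 and 0.106 TPM in the 34 h libraries and 182 and 146 TPM in those of 42 h, is set beside it. Both are the 250 bases before the RefSeq start (GRCh38.p14), 5′ to 3′ on the gene's strand: chr11:27472791-27473040, minus strand, for LGR4 and chr2:170715087-170715336, plus strand, for SP5. In LGR4 the capitals mark an octamer, read as ATGCAAAT on the other strand, the motif that POU factors such as POU5F1 bind, and the pair of CCAAT boxes. In SP5 the capitals mark TCF/LEF words, the sites bound by the nuclear partners of β-catenin.
LGR4: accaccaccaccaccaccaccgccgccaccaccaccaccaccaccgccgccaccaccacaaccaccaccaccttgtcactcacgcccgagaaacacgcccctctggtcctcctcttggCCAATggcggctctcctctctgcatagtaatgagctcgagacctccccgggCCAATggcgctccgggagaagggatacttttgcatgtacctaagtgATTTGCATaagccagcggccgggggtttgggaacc
SP5: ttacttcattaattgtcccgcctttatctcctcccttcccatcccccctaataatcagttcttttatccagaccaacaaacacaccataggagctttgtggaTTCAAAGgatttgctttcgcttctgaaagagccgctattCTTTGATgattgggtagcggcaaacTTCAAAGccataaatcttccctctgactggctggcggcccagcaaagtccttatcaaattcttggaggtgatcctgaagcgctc

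The TCF/LEF words searched on both strands were CTTTGAA, further CTTTGAT, further CTTTGTA and lastly CTTTGTT. The SP5 window held 3 matches. CTTTGAA, read on the other strand, began 148 and 84 bases before the start, and CTTTGAT began 109 bases before it. The LGR4 window held 0 matches. Of 34943 windows of the same length, 12.0% held at least 1. RefSeq windows were matched for 6 of the 9 genes, RSPO1, RSPO3, RSPO4, LGR4, LGR6 and LRP5, with 8 windows in all because LGR6 has several starts, and 0 of the 8 held a TCF/LEF word. The octamer of LGR4 began 35 bases before the start, and 1.63% of all windows held it. The CCAAT boxes began 132 and 81 bases before the start, and 32.0% of all windows held at least 1 on either strand. Both of these motifs were looked for after the LGR4 sequence had been read. POU5F1 itself had 1165 and 1152 TPM at 34 h, then 1087 and 989 at 42 h, 842 and 892 at 50 h, and finally 354 and 388 at 72 h. Its mean was lower at each later time, a course unlike that of LGR4. Whether POU5F1 and LGR4 are linked was not tested. The LRP5 window was 87.2% G and C with 43 CG pairs, against 62.0% and 14 in LGR4, and the GC box GGGCGG was found 3 times in LRP5, 3 times in RSPO4, 2 times in RSPO3 and 0 times in LGR4, where 42.5% of all windows held it on either strand. A match is a description of the letters and no evidence of binding.

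LGR6 and LGR5, the other R-spondin receptors, were at low levels. LGR6 (chromosome 1, 202193901 to 202319781, plus strand), a receptor known from skin stem cells, had 0.340 and 0.760 TPM at 34 h, then 0.708 and 0.468 at 42 h, 0.850 and 0.654 at 50 h, and finally 0.912 and 0.507 at 72 h. The libraries of all 4 times overlapped. LGR5 (chromosome 12, 71439770 to 71586310, plus strand) ranged from a listed 0 in replicate 2 of 34 h and replicate 1 of 42 h to 0.145 TPM in replicate 2 of 42 h. Neither reached 1 TPM in any library. In the fit without a filter on low values, LGR6 differed at 72 h from 34 h by 0.14 ± 0.20 (limma adjusted p 0.709) and LGR5 by -0.04 ± 0.09 (0.836). The other leucine-rich repeat receptors listed, FSHR, LHCGR, TSHR, RXFP1 and RXFP2, which bind glycoprotein hormones or relaxins, were all under 1 TPM in every library, and 0 of the 5 were tested.

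The co-receptors were at similar levels at 34 h and lay further apart at 72 h. LRP6 (chromosome 12, 12116025 to 12267012, minus strand) had 18.8 and 16.4 TPM at 34 h, then 19.0 and 30.2 at 42 h, 21.8 and 22.1 at 50 h, and finally 27.5 and 24.6 at 72 h. Both 72 h libraries lay above those of 34 h and 50 h. Replicate 2 of 42 h was the highest of the 8 and replicate 1 of 42 h the third lowest. The log2 change of LRP6 at 72 h against 34 h was 0.54 ± 0.20, with 0.53 and 0.56 within the replicates, and did not pass the threshold (limma adjusted p 0.0866). It passed without replicate 1 of 42 h (0.0260), without replicate 2 of 42 h (0.0271) and in a fit of the 34 h and 72 h libraries alone (0.0436). The alternatives ranged from 0.0260 to 0.296. At 42 h the log2 change was 0.02 within replicate 1 and 0.85 within replicate 2 (0.43 ± 0.20 in all, limma adjusted p 0.405).

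LRP5 (chromosome 11, 68312609 to 68449275, plus strand), the co-receptor best known for its effect on bone mass, had 16.8 and 14.4 TPM at 34 h, then 17.2 and 14.3 at 42 h, 16.5 and 15.4 at 50 h, and finally 13.2 and 13.7 at 72 h. The libraries of 34, 42 and 50 h overlapped, and those of 72 h lay below all others. The log2 change at 72 h against 34 h was -0.19 ± 0.14, with a 95% interval from -0.53 to 0.14 (limma adjusted p 0.367). LRP5L, a partial copy of LRP5, had between 2.36 and 6.04 TPM, and how reads shared by both were assigned is not given in the sources used here.

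The ratio of LRP6 to LRP5 within a library does not depend on how libraries are scaled. It was 1.12 and 1.14 at 34 h, then 1.10 and 2.11 at 42 h, 1.33 and 1.44 at 50 h, and finally 2.08 and 1.80 at 72 h. Every 50 h and 72 h library had a higher ratio than both 34 h libraries, while the 42 h libraries lay at either end of the range. The ratios are given as a description and were not tested. The ratio of LGR4 to LRP6 was 2.80 and 3.07 at 34 h, then 1.64 and 1.17 at 42 h, 2.21 and 2.07 at 50 h, and finally 3.74 and 3.38 at 72 h, lowest at 42 h and highest at 72 h.

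Of the E3 ligases that R-spondin and LGR complexes act on, RNF43 rose at all 3 later times and ZNRF3 at 50 h and 72 h. RNF43 had 0.402 and 0.382 TPM at 34 h, then 11.8 and 13.6 at 42 h, 16.7 and 13.1 at 50 h, and finally 12.3 and 13.2 at 72 h, with a log2 change of 3.29 ± 0.17 at 42 h (limma adjusted p 9.157e-05). It entered the test through its 42, 50 and 72 h libraries, so it had to be higher there. ZNRF3 had 8.26 and 6.13 TPM at 34 h, then 12.0 and 10.7 at 42 h, 16.1 and 11.4 at 50 h, and finally 15.8 and 16.9 at 72 h. Its changes were 0.60 ± 0.20 at 42 h (limma adjusted p 0.217), 0.84 ± 0.20 at 50 h (0.0467) and 1.09 ± 0.20 at 72 h (0.00579). The 50 h call of ZNRF3 was lost under 12 of 15 alternatives, with adjusted p-values up to 0.248. From 42 h on the ratio of RNF43 to ZNRF3 lay between 0.777 and 1.27, against 0.0486 and 0.0623 at 34 h.

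Set against these ligases, LGR4 had its lowest ratios at 42 h. The ratio of LGR4 to the sum of ZNRF3 and RNF43 was 6.06 and 7.71 at 34 h, then 1.31 and 1.46 at 42 h, 1.47 and 1.87 at 50 h, and finally 3.66 and 2.77 at 72 h. Both 72 h ratios lay above those of 42 h and 50 h and below those of 34 h, although LGR4 itself was highest at 72 h.

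**Figure D3:**
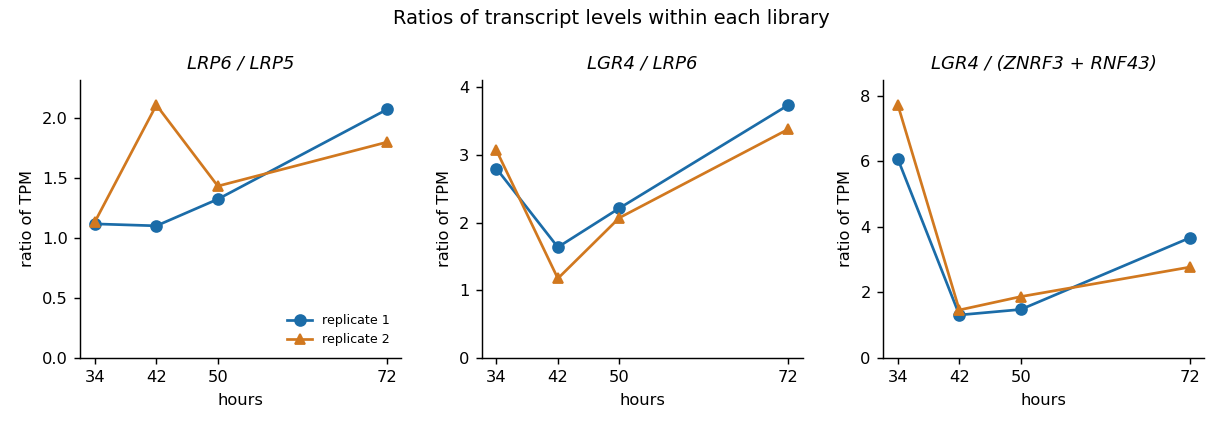
Ratio of TPM within each library (y axis, from 0) against hours (x axis) for LRP6 over LRP5, LGR4 over LRP6, and LGR4 over the sum of ZNRF3 and RNF43; lines join the libraries of 1 replicate number. LRP6 over LRP5 reached 2.08 and 1.80 by 72 h, and LGR4 over the ligases went from 6.06 and 7.71 at the start to 1.31 and 1.46 at 42 h.

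Of the 5 genes listed with R-spondin and LGR turnover, RNF43, ZNRF3, the deubiquitinase USP42 and the heparan sulphate proteoglycans SDC4 and GPC4, all were tested. At 42 h against 34 h 1 was raised, RNF43, and 1 lowered, GPC4, where 2.58% of all tested genes were called. At 50 h 2 were raised, RNF43 and ZNRF3, and 1 lowered, GPC4, where 6.26% were called. At 72 h 2 were raised, RNF43 and ZNRF3, and 2 were lowered, GPC4 and SDC4, where 24.0% were called and 12.7% were raised. The list medians at the 3 times were -0.06, 0.20 and 0.37, beside 0.01, 0.04 and 0.06 over all genes. GPC4, a glypican, had 170 and 165 TPM at 34 h, then 84.7 and 92.6 at 42 h, 62.2 and 70.1 at 50 h, and finally 30.7 and 33.2 at 72 h. It was lower at each later time, with log2 changes of -0.91 ± 0.10 at 42 h (limma adjusted p 0.00292) and -2.35 ± 0.10 at 72 h (5.944e-06). SDC4, a syndecan reported as an R-spondin partner, went from 36.2 and 39.4 TPM to 25.1 and 21.6 TPM by 72 h (-0.67 ± 0.12, limma adjusted p 0.00462).

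Of the 16 listed partners of LRP5 and LRP6, 13 were tested. At 42 h against 34 h 2 were raised, APCDD1 and DKK4, at 50 h 1, APCDD1, and at 72 h 3 were raised and 2 lowered, where 2.58%, 6.26% and 24.0% of all tested genes were called at the 3 times. The list medians were 0.15, 0.17 and 0.07, beside 0.01, 0.04 and 0.06 over all genes. DKK4, a secreted antagonist that binds LRP6, had a listed 0 and 0.101 TPM at 34 h, then 5.19 and 4.49 at 42 h and 0.412 and 0.399 at 50 h, and was listed at 0 in both 72 h libraries (2.47 ± 0.25 at 42 h, limma adjusted p 0.00149). DKK4 entered the test through its 42 h libraries alone, so its call there rests on that choice. APCDD1, a membrane inhibitor that binds WNT and LRP5, rose from a mean of 2.38 ± 0.885 TPM (SD, n = 2) to 19.7 and 12.0 TPM at 42 h, then 36.2 and 34.2 at 50 h (3.45 ± 0.27, limma adjusted p 0.000280). The 42 h call of APCDD1 did not hold in a fit of the 34 h and 42 h libraries alone (adjusted p 0.0521).

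At 72 h TPBG, a leucine-rich repeat inhibitor of LRP6 signalling, was raised from 11.6 and 14.0 to 25.5 and 24.3 TPM (0.92 ± 0.13, limma adjusted p 0.00218). The casein kinase gene CSNK1G2, whose family phosphorylates LRP6, was raised by 0.44 ± 0.12 (limma adjusted p 0.0362), and LYPD6, a membrane-anchored activator of LRP6, fell by 0.77 ± 0.22 (0.0345). Neither of these calls held when a single library of 34 h or 72 h was left out, where the adjusted p-values were 0.0859 to 0.162. TMEM198, which promotes LRP6 phosphorylation, fell by 1.22 ± 0.24 (limma adjusted p 0.00901), and lost the call without replicate 1 of 34 h (0.0596) or of 72 h (0.0503). MESD, the chaperone that folds LRP5 and LRP6, went from 28.5 and 26.5 TPM to 31.4 and 30.0 TPM by 72 h, and its change of 0.15 ± 0.11 did not pass (limma adjusted p 0.342).

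Of 14 other WNT receptors listed, all tested, 4 were raised and 2 lowered at 42 h, 6 raised and 2 lowered at 50 h, and 7 raised and 1 lowered at 72 h, where 2.58%, 6.26% and 24.0% of all tested genes were called. The list medians were 0.30, 0.46 and 0.54, beside 0.01, 0.04 and 0.06 over all genes. The receptor tyrosine kinase-like ROR2 rose from 5.33 and 4.09 to 85.5 and 87.6 TPM at 72 h (3.95 ± 0.20, limma adjusted p 9.049e-06). FZD10 and FZD1 rose by 3.15 ± 0.22 and 2.77 ± 0.18 at 72 h, and FZD9 by 1.45 ± 0.22. FZD10 and FZD1 were under 1 TPM at 34 h and entered the test through the later libraries. FZD5 was lower at all 3 times, going from 20.5 and 19.4 TPM to 8.28 and 8.27 TPM by 42 h (-1.18 ± 0.14, limma adjusted p 0.00352). PTK7, a co-receptor of planar polarity signalling, rose by 0.72 ± 0.13 at 42 h (limma adjusted p 0.0259, range up to 0.167 over the alternatives) and by 1.11 ± 0.13 at 72 h (0.000665). Of the 11 listed signalosome and destruction complex genes 1 was called at each time, AXIN2, a WNT target, which was raised, a share to be read against the same percentages.

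Of the LDL receptor relatives of LRP5 and LRP6, 10 of 11 were tested, and 1 was raised at 42 h and at 50 h, LRP4, and at 72 h 3 were raised and 2 lowered, again beside 2.58%, 6.26% and 24.0% of all tested genes called. The list medians were 0.05, 0.06 and 0.14, beside 0.01, 0.04 and 0.06 over all genes. LRP4, a receptor for agrin and sclerostin, had 6.20 and 6.76 TPM at 34 h, then 15.5 and 14.5 at 42 h, 26.9 and 26.8 at 50 h, and finally 75.3 and 71.9 at 72 h. It rose by 1.10 ± 0.11 at 42 h (limma adjusted p 0.00179, and 0.0521 with the compared time points fitted alone) and by 3.32 ± 0.11 at 72 h (2.417e-06), and by 72 h lay above LRP5 and LRP6. LRP2, or megalin, an endocytic receptor of the neural tube, had 3.10 and 2.46 TPM at 34 h, then 3.46 and 2.71 at 50 h, and finally 38.7 and 28.6 at 72 h (3.08 ± 0.21 from 50 h on, limma adjusted p 0.000184). LRP12 was raised by 0.85 ± 0.19 in the 72 h libraries (limma adjusted p 0.0134), and lost the call without replicate 1 of 34 h (0.0792) or of 72 h (0.0938). LRP11 and VLDLR fell by 1.22 ± 0.17 and 1.10 ± 0.23 (limma adjusted p 0.00149 and 0.0104), and VLDLR lost the call without replicate 2 of 34 h (0.0654) or of 72 h (0.0675).

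**Figure D4:**
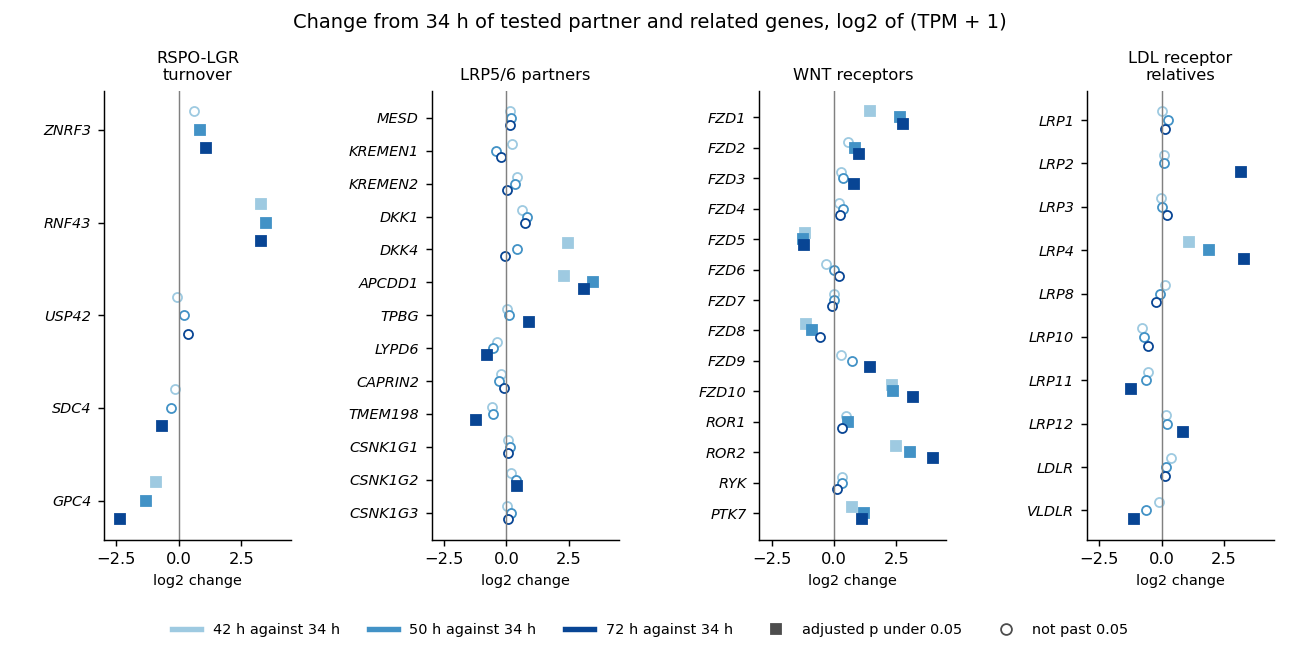
Change from 34 h in log2(TPM + 1) (x axis) of the tested genes (y axis) in 4 lists; shades from light to dark stand for 42, 50 and 72 h, and filled squares passed an adjusted p of 0.05. RNF43, APCDD1, ROR2, FZD10 and LRP4 lie to the right at several times, LRP2 at 72 h, and GPC4 and FZD5 to the left at all 3.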

How the data were processed

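The deposited table gives TPM per Ensembl gene, computed by the authors, 1 column per library, each summing to 1000000. Salmon 1.9.0 and GRCh38 are named in the submitters' processing notes; the annotation and filters are not given in the sources used here. The 37951 rows were summed by symbol to 35940. The 14908 genes that reached 1 TPM in 2 or more of the 8 libraries were fitted as log2(TPM + 1), 1 mean per time point, with limma 3.58.1 in R 4.3.3 (mean-variance trend, two-sided, Benjamini-Hochberg over all tested genes, threshold 0.05). The fit was also run on values simulated as normal, with its own fitted spread and no batch effect. Such values follow the model of the fit and so cannot check the calls made here. An unweighted trimmed mean of log ratios (TMM) moved no median change by over 0.1. The labels call replicate 2 an independent biological replicate.

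The replicate number is also the batch label and so pairs libraries. Replicate differences correlated between times at -0.104 to 0.195 across genes.

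The 9 genes, the lists and the naming rule (the 9 genes, up to 6 called genes per list by size of change, and the 3 most alike genes) were chosen with earlier results of these data known. SP5, LRP5L, MESD, USP42, the markers LIN28A, POU5F1, PRDM14, SOX1, SOX2, SOX3, PAX6, HES5, SOX17, MSGN1, TBXT, MIXL1, EOMES, TBX6, MSX1, MSX2, LMX1A, GDF7, WNT1 and WNT3A, and the untested receptors FSHR, LHCGR, TSHR, RXFP1 and RXFP2 were named outside that rule. Positions are GENCODE release 29. No other gene shared exonic bases with a member except an antisense gene over 3.96% of LGR5. Alternatives were a pseudocount of 0.1, no filter, TMM, quantile normalization, no variance trend, compared times alone, a replicate block and leaving out each library.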

Additional observations from a re-analysis of the deposited data

How the results depend on the processing

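The count of the 9 genes called at 42 h against 34 h, 1 as reported, was 0 without the filter on low values, 0 without a variance trend, 0 with the compared time points alone and 0 with the replicate block, and between 0 and 1 when single libraries were left out; the gene concerned was LGR4 throughout. The count at 50 h against 34 h was 1 without a variance trend (RSPO1). The count at 72 h against 34 h was 2 without a variance trend (LGR4 and RSPO1) and 2 with the compared time points alone (LGR4 and LRP6), and between 1 and 2 when single libraries were left out. The count at any time was 2 without a variance trend and between 1 and 2 with single libraries left out. The replicate block changed no other call of the 6 tested genes than LGR4 at 42 h. Of 450 recomputed changes of the 6 tested genes, 435 kept their direction where called and their side of the threshold, 10 lost the call and 5 gained it. Of 643 recomputed calls of list genes 602 held, 41 were lost and 0 changed direction. The count over all genes at 42 h was 384, and 171 with the compared time points alone or 160 to 385 with single libraries left out. At 50 h it was 933, 431 alone and 412 to 809 with single libraries left out, and at 72 h 3578 and 1840 to 3661. At 72 h against 50 h it was 1093, 367 alone and 319 to 929, and over all times 2587 and 1158 to 2508. Between 42 h and 50 h it was 14, with 27 without a variance trend, 8 without the filter, 7 with the block, 0 alone and 1 to 8 with single libraries left out. Fewer libraries or genes entered some of these fits; otherwise the cause was not tested. Without read counts, no detection limit could be set for RSPO3, LGR5 and LGR6.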
